A study of Mus musculus with 4 samples.

Results

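The expression of 10 genes of the YAP pathway was measured in single epithelial cells of the mouse mammary gland, out of 27998 genes listed in the count tables. The genes were Yap1, Wwtr1, Tead1, Lats2, Ajuba, Amotl2, Ctgf, Cyr61, Ankrd1 and Axl, and they were chosen by name. Ankrd1 had been chosen for its low value in basal cells of puberty and Axl for its restriction to basal cells, so these values are given as a description without a test. All cells came from mice of the FVB/NJ strain, for which the labels give no treatment, and were sorted as CD24+ cells negative for CD31, CD45 and TER-119. Pubertal glands were taken at 5 weeks of age, and adult glands at 10 weeks, in estrus or in diestrus. The estrus and diestrus libraries each pooled the cells of a pair of mice according to the study. Each stage had 1 library, so a difference between stages had no replicate check, and the animals, the library and the stage cannot be told apart. Lineages were compared over the 3 libraries.

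YAP1 and TAZ, the product of Wwtr1, are coactivators that do not bind DNA themselves and reach their target genes through TEAD transcription factors. When the Hippo kinase cascade is active, the LATS kinases phosphorylate YAP1 and TAZ, which are then held in the cytoplasm or degraded. The pathway is known for its response to cell contact, stretch and matrix stiffness, and in the mammary gland the basal cells are those that contract and touch the basement membrane.

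The puberty library was deposited as 2 tables. They had 5387 barcodes in common (99.2% of the larger one), and only the larger one was used. It held 5428 cells and 25365324 counts of molecules. Estrus gave 2729 cells with 10962454 counts, and diestrus 2439 cells with 11868593 counts. At most 24 barcodes were shared between libraries of different stages. Clusters of cells were named from markers as basal, luminal progenitor (LP) or mature luminal (ML), with the 10 genes kept out of the clustering. The pubertal library gave 1144 basal, 1779 LP and 1771 ML cells, the estrus library 1101, 487 and 759, and the diestrus library 1053, 579 and 684. All 8 basal markers, Krt5 and Krt14 among them, had counts in basal cells of every library and summed to between 19889 and 29041 CPM, against 55.1 to 702 CPM in the luminal classes. Fibroblast markers summed to 178 to 363 CPM and pericyte markers to 10.3 to 30.9 CPM in basal cells, and Pdgfra had no count in basal cells of puberty. Shared luminal markers summed to 1957, 1847 and 1309 CPM in basal cells of puberty, estrus and diestrus. LP markers summed to 768, 170 and 175 CPM there in the same order. The part of luminal transcripts in the basal values was not tested. Between 4.67% and 13.3% of the cells of a library stayed unnamed and were left out, among them clusters with markers of more than 1 lineage. Levels are counts summed over the cells of a class and library, as counts per 1000000 after TMM scaling (CPM). Intervals are exact 95% Poisson or binomial intervals and cover counting error only.

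TEAD factors recognise the letters CATTCC, which read GGAATG on the other strand. The RefSeq promoter table of GRCm38.p6 matched 8 of the 10 genes, all but Ctgf and Tead1, and the 250 bases before each start were searched on both strands. At least 1 match was found in 7 of these 8 genes, all but Lats2, whereas 14.4% of 27025 genes in the table held one. No match to the AP-1 letters TGANTCA was found in the 8 genes, and 7.82% of all genes held one. The genes were chosen by name as genes of the YAP pathway, so this count is no independent support. The matches are shown here since they are a sequence feature of 7 of the 8 genes searched. A match is a description of letters and does not show that a factor was bound. Each stretch of 30 bases is read 5′ to 3′ on the strand of its gene, with the matching letters in capitals. Those of Ankrd1 and Amotl2 lie within annotated exons of these genes in GENCODE M21, and the others overlap no annotated exon.
Yap1, chr9:8004720-8004749, minus strand: cgggagtctgcaGGAATGtagcgacgcgca
Wwtr1, chr3:57576029-57576058, minus strand: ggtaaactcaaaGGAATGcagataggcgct
Ajuba, first match, chr14:54577830-54577859, minus strand: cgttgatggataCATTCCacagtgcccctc
Ajuba, second match, chr14:54577808-54577837, minus strand: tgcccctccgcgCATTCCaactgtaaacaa
Amotl2, chr9:102717727-102717756, plus strand: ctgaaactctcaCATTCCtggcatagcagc
Cyr61, listed as Ccn1, chr3:145650071-145650100, minus strand: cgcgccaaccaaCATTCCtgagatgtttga
Ankrd1, first match, chr19:36120037-36120066, minus strand: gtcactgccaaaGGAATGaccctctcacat
Ankrd1, second match, chr19:36119950-36119979, minus strand: gacactaagtctGGAATGaaaattcacctg
Axl, chr7:25788949-25788978, minus strand: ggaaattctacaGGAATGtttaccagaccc

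The matches began between 65 bases (Amotl2) and 233 bases (Axl) before the start. The full 250 bases of Ajuba and Cyr61 are given as a regulator with 2 neighbouring matches and as the target that was highest in LP cells, and that of Axl as the gene chosen for its basal level, again with matches in capitals.
Ajuba, chr14:54577662-54577911, minus strand: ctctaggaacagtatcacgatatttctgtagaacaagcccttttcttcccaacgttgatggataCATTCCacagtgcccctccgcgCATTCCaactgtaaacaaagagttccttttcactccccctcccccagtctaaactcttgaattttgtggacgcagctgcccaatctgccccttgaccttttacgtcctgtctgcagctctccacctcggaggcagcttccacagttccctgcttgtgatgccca
Cyr61, chr3:145649986-145650235, minus strand: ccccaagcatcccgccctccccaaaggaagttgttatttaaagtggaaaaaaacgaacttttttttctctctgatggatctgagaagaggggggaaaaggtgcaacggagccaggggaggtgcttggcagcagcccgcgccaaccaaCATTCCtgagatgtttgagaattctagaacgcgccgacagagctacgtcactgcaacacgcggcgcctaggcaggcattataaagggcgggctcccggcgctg
Axl, chr7:25788734-25788983, minus strand: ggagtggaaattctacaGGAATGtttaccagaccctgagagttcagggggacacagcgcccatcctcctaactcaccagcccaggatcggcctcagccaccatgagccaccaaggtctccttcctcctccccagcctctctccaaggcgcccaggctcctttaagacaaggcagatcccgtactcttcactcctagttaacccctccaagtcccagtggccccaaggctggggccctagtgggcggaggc

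To ask how the pathway was distributed over the lineages, each gene was compared between basal cells and the mean of LP and ML cells, and between LP and ML cells. Of the 8 genes for which basal cells could be tested, Yap1, Wwtr1, Tead1, Ajuba and Ctgf were higher in basal cells at an adjusted p-value under 0.01, and none was lower. Among all 11060 genes tested, 20.9% were higher and 17.8% lower in basal cells. Between the luminal classes, 3 of 8 genes (Wwtr1, Ctgf and Cyr61) were higher in LP than in ML cells and none was lower, against 14.2% of all genes higher and 13.2% lower. The median log2 fold change of these genes was 1.12 for basal over luminal cells and 0.75 for LP over ML cells (8 genes each, without Axl and Ankrd1), against medians of 0.02 and 0.01 over all genes. The genes were selected with earlier results of these libraries known, so these counts are no independent support. Ankrd1 was too low in the luminal classes to pass the filter on low counts and was not fitted. All adjusted p-values come from edgeR's quasi-likelihood test with Benjamini-Hochberg adjustment over all genes, with the library as a block.

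**Figure D1:**
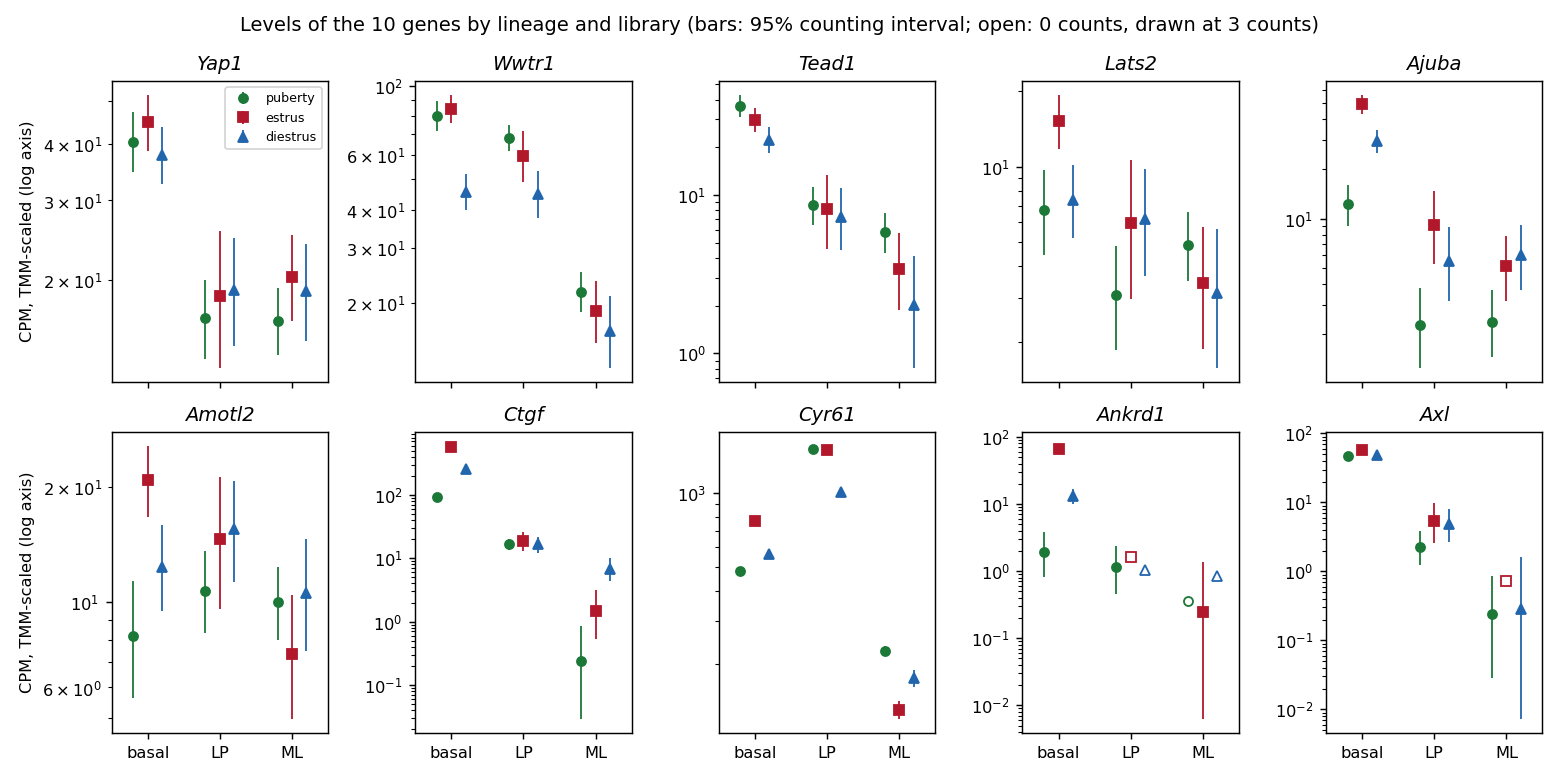
Levels of the 10 genes in basal, LP and ML cells of the puberty, estrus and diestrus libraries, in TMM-scaled CPM on a log axis that differs between panels. Points are single libraries with their 95% counting intervals, and open points are libraries with 0 counts, drawn at the level of 3 counts. All genes but Amotl2 and Cyr61 were highest in basal cells of every library, although Wwtr1 hardly so in diestrus and Ankrd1 hardly so in puberty. Axl had been chosen for this trait. Cyr61 was highest in LP cells.

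Yap1 (chr9:7931999-8004596) encodes the coactivator YAP1. Its level in basal cells was 40.5 CPM in puberty, 44.7 CPM in estrus and 37.8 CPM in diestrus. In LP cells it was 16.4, 18.4 and 19.0 CPM and in ML cells 16.2, 20.3 and 18.9 CPM in the same order. Every basal value was above every luminal value. The log2 fold change of basal over luminal cells was 1.17 ± 0.13 (SE, 3 libraries; adjusted p = 2.53e-05). Between LP and ML cells it was -0.03 ± 0.16 (adjusted p = 0.939), and the values of the luminal classes overlapped.

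Wwtr1 (chr3:57455649-57575910) encodes TAZ, the paralog of YAP1. Basal cells held 80.1, 84.5 and 45.6 CPM in puberty, estrus and diestrus. LP cells held 68.1, 59.5 and 44.9 CPM. ML cells were the low class, at 21.8, 18.9 and 16.3 CPM. Basal levels exceeded those of LP cells in all 3 libraries, although hardly in diestrus, and the ranges of both classes overlapped. The fitted difference was 1.06 ± 0.12 on the log2 scale for basal over the mean of both luminal classes (adjusted p = 4.97e-05) and 1.60 ± 0.16 for LP over ML cells (adjusted p = 2.40e-05). Basal and LP cells were not tested against each other alone. The coactivators were distributed differently, in that Yap1 separated basal cells from both luminal classes, and the values of Wwtr1 separated ML cells from the others.

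Tead1 (chr7:112679318-112906807) encodes a TEAD factor, the DNA-binding partner of YAP1 and TAZ. It was found at 36.7 CPM in basal cells of puberty, 29.95 CPM in estrus and 22.4 CPM in diestrus. LP cells held between 7.25 and 8.62 CPM and ML cells between 2.004 and 5.83 CPM, and none of the 3 ranges overlapped. Basal cells were 5.35-fold higher than luminal cells (log2 fold change 2.42 ± 0.18, adjusted p = 2.27e-06). The LP to ML difference of 1.02 ± 0.27 did not pass the threshold (adjusted p = 0.0125). It passed under 5 of the alternatives, among them 0.05 as threshold and the second puberty table (1.12, adjusted p = 0.00851).

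Lats2 (chr14:57689662-57758388), which encodes a kinase that inhibits YAP1 and TAZ, had few counts in all classes. Its basal level was 6.71, 15.2 and 7.40 CPM in puberty, estrus and diestrus, from 28, 65 and 37 counts. LP cells held 3.09 to 6.21 CPM and ML cells 3.15 to 4.88 CPM. The difference of 1.07 ± 0.32 in favour of basal cells did not pass the threshold (adjusted p = 0.0157). It did pass when cells were called one by one from markers (adjusted p = 0.00918), and its adjusted p ranged from 0.00529 to 0.171 over the alternatives.

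Ajuba (chr14:54567472-54577558) encodes a LIM domain protein that binds and restrains the LATS kinases. Basal cells held 12.2 CPM in puberty, 49.4 CPM in estrus and 29.6 CPM in diestrus. No luminal value was above 9.19 CPM, and the lowest basal value, that of puberty, was still higher. Basal cells were higher by 2.54 ± 0.19 on the log2 scale (adjusted p = 2.24e-06), with no difference past the threshold between LP and ML cells (0.23 ± 0.29, adjusted p = 0.575).

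Amotl2 (chr9:102716672-102733418) encodes an angiomotin-like protein that holds YAP1 at cell junctions and is itself a target of the pathway. Its ranges overlapped between the classes, at 8.15 to 20.8 CPM in basal, 10.7 to 15.5 CPM in LP and 7.35 to 10.6 CPM in ML cells. Neither difference passed the threshold (basal over luminal 0.23 ± 0.26, adjusted p = 0.486, and LP over ML 0.48 ± 0.31, adjusted p = 0.241). Without the estrus library the basal difference was -0.19.

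The targets differed in the lineage that held them. Ctgf (chr10:24595442-24598683, Ccn2 in GENCODE M21) encodes a secreted matricellular protein. Its counts in basal cells gave 92.0 CPM in puberty, 573 CPM in estrus and 258 CPM in diestrus. LP cells had 16.7, 18.9 and 16.6 CPM, and ML cells had 2, 6 and 24 counts, or 0.238, 1.47 and 6.87 CPM. The classes did not overlap. Basal cells were higher by 5.26 ± 0.43 on the log2 scale (adjusted p = 3.69e-06), a value that leans on the few counts in ML cells. The LP level exceeded the ML level by 3.15 ± 0.71 (adjusted p = 0.00517), but this call was lost without the puberty library (2.13, adjusted p = 0.0153), without the estrus library (2.89, adjusted p = 0.0144) and without the block for library (2.84, adjusted p = 0.0422). An exon of Gm15270 on the opposite strand overlaps the last 3000 bases of Ctgf, and use of the strand in counting is not given in the sources used here.

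Cyr61 (chr3:145646976-145649981, Ccn1 in GENCODE M21) encodes a matricellular protein of the same family. In contrast to Ctgf, its highest levels were in LP cells, at 1510, 1503 and 1010 CPM in puberty, estrus and diestrus. Basal cells lay between the luminal classes in all 3 libraries, at 479, 766 and 562 CPM. ML cells had 227, 130 and 175 CPM. The 3 ranges were separate, and LP cells were 7.45-fold higher than ML cells (log2 fold change 2.90 ± 0.24, adjusted p = 7.38e-06). Since basal cells stood between the classes that were averaged, the difference of basal over luminal cells was only 0.31 ± 0.19 (adjusted p = 0.203).

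Ankrd1 (chr19:36111961-36120099) encodes an ankyrin repeat protein that is induced in muscle and many other cells under load. It had 8 counts in basal cells of puberty, 280 in estrus and 65 in diestrus, or 1.92, 65.5 and 12.99 CPM. In LP cells there were 7 counts in puberty and 0 in both adult libraries. ML cells held a single count, in estrus. The 3 counts that set the floor stand for 1.62 CPM in LP cells of estrus and 0.735 CPM in ML cells of estrus. Among the basal, LP and ML classes, counts of the adult libraries lay in basal cells but for 1. Some lay in cells outside these classes, among them 12 counts in an unnamed estrus cluster of 13 cells and 5 in one of 200 cells. In puberty the basal and LP levels, 1.92 CPM (0.828 to 3.78) and 1.14 CPM (0.458 to 2.34), had overlapping intervals.

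Axl (chr7:25757273-25788705) encodes a receptor tyrosine kinase whose ligand is GAS6. Its basal level was 47.5 CPM in puberty, 58.5 CPM in estrus and 48.6 CPM in diestrus. LP cells had 14, 10 and 14 counts, or 2.28, 5.41 and 4.83 CPM, and ML cells 2, 0 and 1 counts. The gene was chosen on its low luminal and high basal values and passed the filter on low counts through basal cells, so no test is given between any of the classes. The 8 basal markers together gave 165, 702 and 434 CPM in LP cells and 55.1, 89.4 and 224 CPM in ML cells, and their part in the low luminal values of Axl and Ctgf was not tested.

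**Figure D2:**
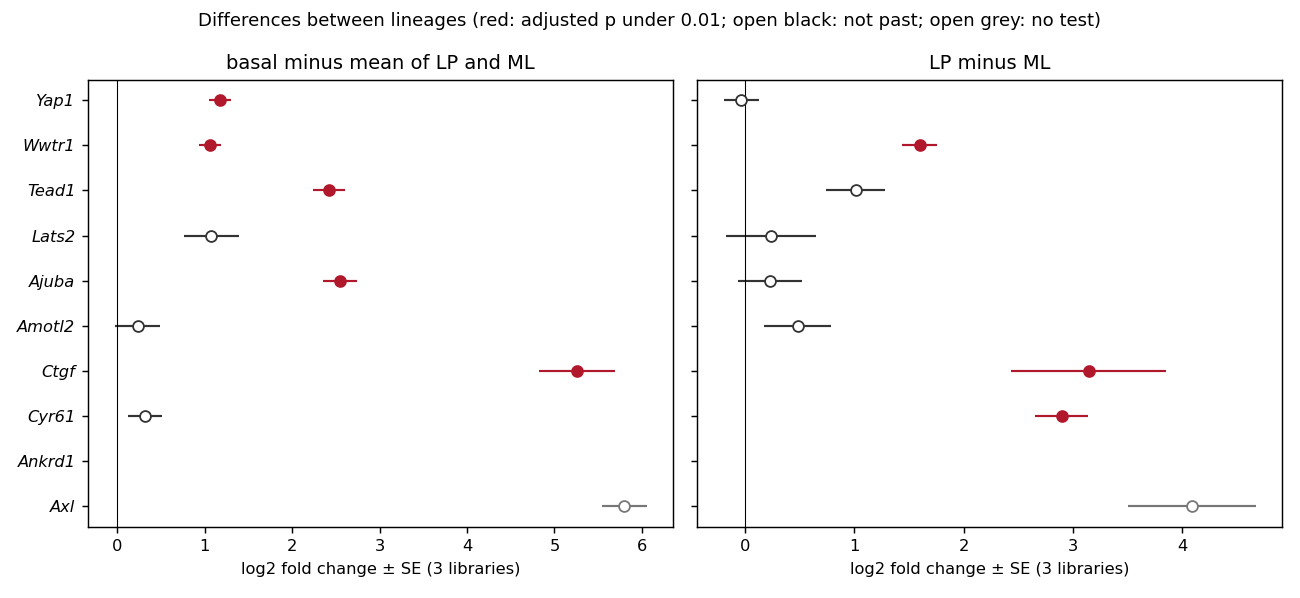
Log2 fold change with its standard error over 3 libraries for basal cells against the mean of LP and ML cells (left) and for LP against ML cells (right). Filled red points have an adjusted p-value under 0.01, open black points do not, and the open grey points of Axl have no test. Ctgf, Ajuba and Tead1 had the largest differences among the tested genes on the left, and Ctgf and Cyr61 on the right.

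Other genes of the pathway were read from lists. Of 23 Hippo and YAP regulators outside the members, 20 were tested. Against the mean of both luminal classes, 4 were higher in basal cells, 2 were lower and 14 did not pass (median log2 fold change 0.27), shares no larger than the 20.9% and 17.8% of all genes. Frmd6, which encodes a FERM domain protein upstream of the kinases, was higher in basal cells by 3.14 ± 0.31 (adjusted p = 1.42e-05) and Amotl1, an angiomotin-like scaffold, by 1.79 ± 0.20 (adjusted p = 3.12e-05). Dchs1, a giant cadherin, had 20, 20 and 15 counts in basal cells and at most 1 count in a luminal class of any library. It passed the filter on low counts through basal cells, so its place among the 4 is no independent support. Wtip, a LIM protein of the Ajuba family, had 4.31, 4.45 and 3.998 CPM in basal and 5.36, 5.95 and 2.42 CPM in LP cells against 0 counts in all ML cells. It passed in both contrasts (adjusted p = 0.000886 and 0.000262), although its LP level was above the basal level in puberty and estrus. Tead2 had the opposite distribution to Tead1, being lower in basal cells by 2.38 on the log2 scale (log2 fold change -2.38 ± 0.19, adjusted p = 2.60e-06). It had 20.1 to 30.9 CPM in basal, 97.0 to 164 CPM in LP and 135 to 150 CPM in ML cells. Wwc1, which encodes the scaffold KIBRA, was also lower (-1.83 ± 0.19, adjusted p = 1.84e-05). In LP against ML cells 4 regulators were higher and 0 lower (median 0.07, with 14.2% of all genes higher and 13.2% lower), namely Wtip, Frmd6 (2.28 ± 0.46, adjusted p = 0.0029), Vgll4, a TEAD-binding repressor (1.51 ± 0.16, adjusted p = 3.28e-05), and Amotl1 (1.03 ± 0.26, adjusted p = 0.00951).

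Of 16 further YAP and TAZ target genes, 14 were tested. Against the mean of both luminal classes, 8 were higher in basal cells and 4 lower, with 2 not past the threshold (median 1.46). The shares over all genes were 20.9% higher and 17.8% lower. Among the 8, Igfbp3, Fjx1 and Nt5e had low luminal levels and passed the filter on low counts through basal cells. Their direction was thus largely fixed by the filter, and the count is no independent support. For 2 of the 8, 1 luminal class was above basal cells in every library and the other was low. Rbms3 had 37.6, 49.4 and 33.2 CPM in basal and 70.7, 63.2 and 46.1 CPM in ML cells, and Tgfb2 had 11.99, 16.6 and 17.6 CPM in basal and 39.3, 25.4 and 44.2 CPM in LP cells. Igfbp3, an IGF binding protein, had 250, 171 and 302 CPM in basal cells and no more than 4.87 CPM in luminal classes (log2 fold change 6.99 ± 0.25). Fjx1, Nt5e and Ptpn14 were higher by 5.90 ± 0.38, 4.36 ± 0.28 and 2.48 ± 0.19. Fjx1 had no count in either luminal class of estrus, so its fold depends on a few counts. The 4 that were lower were Dock5 (-2.45 ± 0.50), F3, the gene of tissue factor (-1.67 ± 0.22), Myof (-1.17 ± 0.23) and Gadd45a (-0.53 ± 0.13). Between the luminal classes, 2 targets were higher in LP cells (Tgfb2 and Asap1) and 4 in ML cells (Rbms3, Nuak2, Myof and Gadd45a). Over all genes, 14.2% were higher in LP cells and 13.2% in ML cells. Tgfb2 had 242, 47 and 128 counts in LP cells against 5, 0 and 0 in ML cells, and Rbms3 was lower in LP cells (-3.52 ± 0.20, adjusted p = 4.84e-07).

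The next question was how the members differed between the stages within a lineage. In basal cells 9 of the 10 genes reached 20 CPM in at least 1 library, all but Lats2, and a gene that reached it through 1 library alone had to differ. Diestrus was more than 2-fold below estrus for Ctgf and Ankrd1 and for no other of the 9 genes. The log2 ratio of Ctgf was under 2-fold without cycling cells (-0.73) and with the mean of depth-scaled counts over cells (-0.93). Among all 5285 genes at this level, 10.5% differed 2-fold in either direction. Puberty was more than 2-fold below both adult libraries for Ajuba and Ctgf among the 8 genes other than Ankrd1, and 3.1% of 5517 genes differed 2-fold from both in one direction. Ankrd1 was also below both, but it was chosen on this value and reached 20 CPM in estrus alone. Ajuba reached 20 CPM in both adult libraries but not in puberty (12.2 CPM), so puberty had to be its lowest stage. None of the 9 genes was 2-fold higher in diestrus or in puberty. With 1 library per stage no test was possible, and both puberty ratios share the puberty library.

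**Figure D3:**
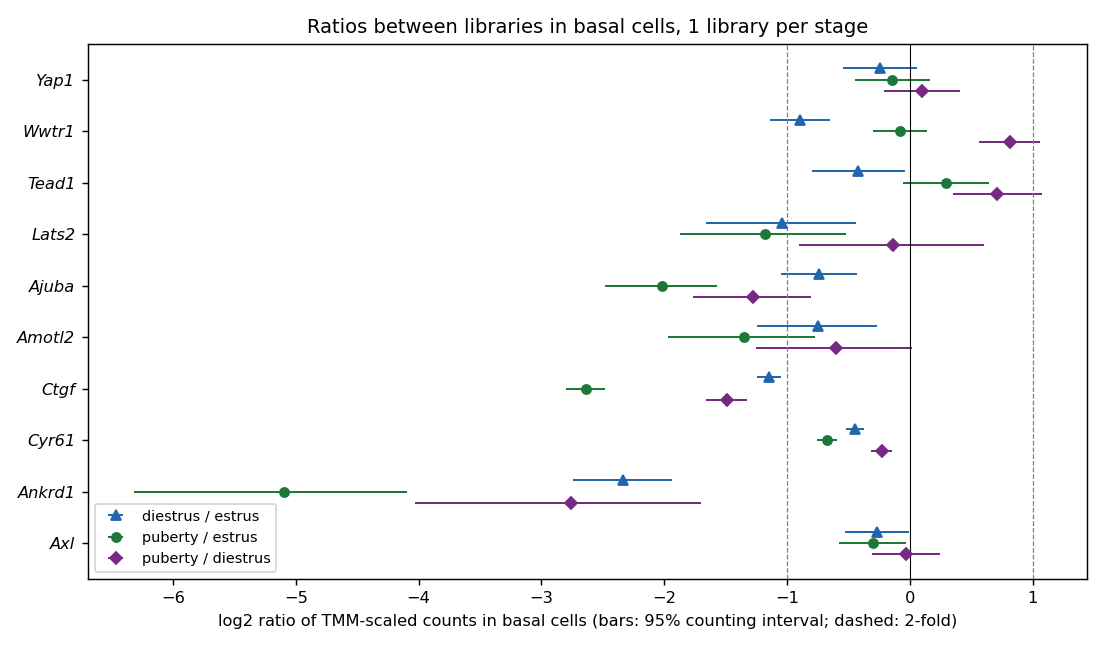
Log2 ratios between libraries in basal cells for the 10 genes, with exact 95% intervals that cover counting error only. Dashed lines mark a 2-fold ratio. Ratios of Yap1 and Axl lay between -0.30 and 0.10 on the log2 scale, whereas all ratios of Ctgf and Ankrd1 lay below -1. Ankrd1 had been chosen for its low value in puberty.

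Ctgf was lower in both other stages than in estrus. Its basal level fell by 1.15 on the log2 scale from estrus to diestrus (-1.25 to -1.05). The puberty level was 6.22-fold below estrus (log2 ratio -2.64, interval -2.80 to -2.48) and 2.81-fold below diestrus (-1.49, interval -1.66 to -1.32). At least 1 count was found in 61.9% of basal cells at estrus, 39.4% at diestrus and 16.5% at puberty. The background share in ML cells was 0.527%, 1.75% and 0.113% in the same order. The median depth of a basal cell was 2598, 3416 and 2923 counts and that of an ML cell 4096, 4326 and 4487 counts, so the library with the highest share had the shallowest cells. In LP cells no such difference was seen, and the diestrus to estrus ratio of Ctgf was -0.19 (-0.85 to 0.48).

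Ankrd1 followed the same order in basal cells. Its diestrus level was 5.04-fold below estrus (log2 ratio -2.33, interval -2.75 to -1.94). In puberty, the value on which it had been chosen, it was 34.2-fold below estrus (-5.09, interval -6.32 to -4.10) and 6.78-fold below diestrus (-2.76, interval -4.03 to -1.70). At estrus 10.8% of basal cells had a count, at diestrus 2.47% and at puberty 0.350% (4 of 1144 cells), against at most 0.132% of ML cells. In LP cells of puberty the share was 0.169% (3 of 1779 cells). Its interval of 0.0348% to 0.492% overlapped that of basal cells in puberty (0.0953% to 0.893%). In estrus 119 cells held the 280 counts.

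Ajuba was 4.04-fold lower in puberty than in estrus (log2 ratio -2.01, interval -2.48 to -1.57) and 2.42-fold lower than in diestrus (-1.28, interval -1.76 to -0.81). Between the adult phases it differed by less than 2-fold, with -0.74 (-1.05 to -0.43). Although too low there for the 20 CPM limit, Ajuba had the same order against puberty in LP cells (-2.01 against estrus from 14 and 17 counts) and in ML cells (-1.11 from 20 and 21 counts). Amotl2, the other junctional regulator, was at -1.35 for puberty against estrus (-1.97 to -0.77) and at -0.60 against diestrus, where the interval of -1.25 to 0.02 included 0. Lats2 had an estrus peak of the same kind at a lower level, with -1.04 for diestrus (-1.66 to -0.44) and -1.18 for puberty (-1.87 to -0.52) against estrus.

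The coactivators and Tead1 did not share this order. Yap1 had ratios of -0.24 (-0.54 to 0.06), -0.14 and 0.10, all with intervals that included 0. Wwtr1 and Tead1 were lowest in diestrus, not in puberty. For Wwtr1, diestrus lay 1.85-fold below estrus (-0.89, interval -1.14 to -0.65), and puberty lay 1.76-fold above diestrus (0.81, interval 0.57 to 1.06). Tead1 was lower in diestrus than in estrus (-0.42, interval -0.80 to -0.04) and 1.64-fold higher in puberty than in diestrus (0.71, interval 0.35 to 1.08). Axl, whose basal level was nearly level over the stages, had -0.27 (-0.53 to -0.0077), -0.30 (-0.58 to -0.03) and -0.03 (-0.31 to 0.24) for diestrus over estrus, puberty over estrus and puberty over diestrus.

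Cyr61 varied less than Ctgf in basal cells, with -0.45 (-0.52 to -0.37) for diestrus and -0.68 (-0.76 to -0.60) for puberty against estrus. A count was found in 40.8%, 59.1% and 56.7% of basal cells in puberty, estrus and diestrus. In LP cells, 2 of the 10 genes reached 20 CPM, Wwtr1 and Cyr61, and neither differed 2-fold in the adult phases (background 11.9% of genes) or in puberty (2.59%). Cyr61 in LP cells was at equal level in puberty and estrus (0.01, interval -0.05 to 0.07) and lower in diestrus (-0.57, interval -0.65 to -0.50). In ML cells, Yap1 and Cyr61 reached 20 CPM in the adult phases and Wwtr1 also in puberty, and none of them differed 2-fold (background 7.13% and 3.25%). Cyr61 had its lowest ML level in estrus, with 0.43 (0.26 to 0.60) for diestrus and 0.81 (0.67 to 0.95) for puberty against estrus. Of the other pathway genes at 20 CPM in basal cells, 1 of 9 regulators (Frmd6, -1.66) and 2 of 8 targets (Gadd45a, -1.34, and Ptpn14, -1.03) were more than 2-fold lower in diestrus than in estrus. None of 10 regulators and 1 of 8 targets, F3, differed 2-fold in puberty, and F3 was higher (1.75 against estrus and 2.38 against diestrus). The background in basal cells was 10.5% of genes between the adult phases and 3.1% in puberty, in either direction.

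Immediate early genes, which many cells transcribe within minutes of a stimulus, rose as a sum from puberty over diestrus to estrus in basal cells. Ctgf, Ankrd1 and Ajuba had this order there, the puberty place of Ankrd1 being that on which it was chosen. Cyr61, Amotl2, Lats2 and Axl had it with smaller differences, Lats2 and Axl hardly between puberty and diestrus. The 10 genes of this list, Fos and Egr1 among them, summed to 6520 CPM in basal cells of puberty, 24213 CPM in estrus and 14025 CPM in diestrus. In puberty 5 of 10 were more than 2-fold below both adult libraries, against 64 of all 5517 genes at 20 CPM in basal cells. All 10 had counts in every class, and the order was the same in LP cells (14552, 34262 and 18288 CPM) and ML cells (9304, 20125 and 15557 CPM), where neither Ctgf nor Cyr61 had it. Ajuba had the same order in LP cells (2.28, 9.19 and 5.52 CPM), from 14 to 17 counts a library, but not in ML cells (2.38, 5.14 and 6.01 CPM). Between lineages 1 immediate early gene was higher in basal cells (Dusp1, 0.75) and 5 were lower, and 5 were higher in LP than in ML cells. Over all genes, 20.9% were higher and 17.8% lower in basal than in luminal cells. Between LP and ML cells, 14.2% were higher and 13.2% lower in LP cells. The 6 heat shock genes summed to 6286, 6935 and 4102 CPM in basal cells, with 4 of 6 higher in basal than in luminal cells, among them Hsph1 (1.77 ± 0.23), and 1 higher (Hspa8) and 1 lower (Hspa1a) in LP than in ML cells. The part of these genes in the values of the members was not tested.

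Basal cells fell into 2 clusters in puberty, 3 in estrus and 5 in diestrus, and the members differed between them. In diestrus, a cluster of 338 cells had Ctgf at 1013 CPM and Cyr61 at 1737 CPM, per 1000000 counts of the cluster, while the other 4 had Ctgf at 31.3 to 151 CPM and Cyr61 at 229 to 577 CPM. The same cluster had 34394 CPM of immediate early genes against 8718 to 11376 CPM in the others, and 0.296% of its cells were cycling. In estrus, the clusters of 503 and 454 cells had Ctgf at 871 and 789 CPM, and the cluster of 144 cells, 53.5% of them cycling, had 177 CPM. In the adult libraries, Ankrd1 was not highest in the cluster with the highest Ctgf. In estrus it was higher in the cluster of 454 cells (131 CPM) than in that of 503 cells (50.5 CPM). Both were far above the cluster of 144 cells that was low in Ctgf (6.27 CPM, 7 counts). In diestrus Ankrd1 was 15.1 CPM (13 counts) in the Ctgf-rich cluster. It was 25.5 CPM (36 counts) in a cluster of 217 cells that was 57.6% cycling. All 8 counts of Ankrd1 in puberty lay in the cluster of 750 cells with few cycling cells. Even the pubertal cluster with the higher Ctgf, at 104 CPM, was below the estrus cluster with the lowest. These are values of clusters within 1 library each, with no test.

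**Figure D4:**
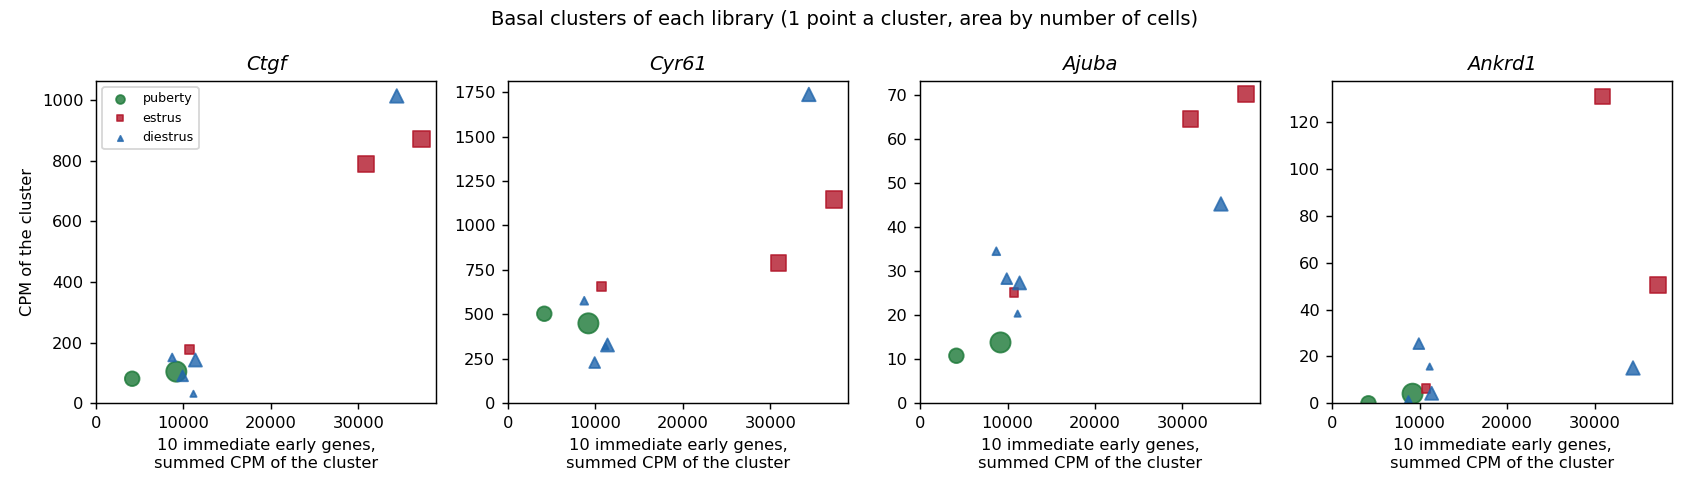
CPM of Ctgf, Cyr61, Ajuba and Ankrd1 in each basal cluster against the summed CPM of 10 immediate early genes in the same cluster, both per 1000000 counts of the cluster. Each point is a cluster of the puberty, estrus or diestrus library, with an area set by its number of cells. The 3 clusters with 30909 CPM or more of immediate early genes hold the highest Ctgf, Cyr61 and Ajuba, while Ankrd1 was at 131 CPM in one of them and at 15.1 CPM in another.

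Cycling cells differed in number between the libraries. Cells with at least 3 of 10 cell cycle genes made up 25.5% of basal cells at diestrus, 14.6% at puberty and 7.36% at estrus. Of the 10 cell cycle genes, 8 were more than 2-fold higher in diestrus than in estrus in basal cells, and 2 were higher in basal than in luminal cells (Rrm2, 1.33 ± 0.13, and Pcna, 0.48 ± 0.10). Among all genes at 20 CPM in basal cells of either phase, 327 of 5285 were 2-fold higher in diestrus. The share of all tested genes higher in basal than in luminal cells was 20.9%. Without the cycling cells the Ctgf ratio of diestrus over estrus was -0.73, under 2-fold, and that of Ankrd1 remained past it. The puberty ratios of Ajuba and Ctgf stayed past 2-fold without these cells. Those of Ankrd1 did too, but it was chosen on its low puberty value, so this is no support. The diestrus clusters with 47.3% to 95.8% cycling cells were also among those low in immediate early genes (8718 to 11151 CPM), and the part of either in the Ctgf ratio was not tested.

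Genes with the most similar pattern over the 9 combinations of class and library were named for 4 members, by Pearson correlation of log2(CPM + 1) among 6839 genes, with no p-value since the points share libraries and cells. For Ankrd1 they were Unc45a (r = 0.971), Lims2 (0.966), Pawr (0.952), Tjap1 (0.950) and Uts2b (0.950). Unc45a, the gene of a myosin chaperone, had 58.7, 144 and 74.4 CPM in basal cells of puberty, estrus and diestrus and at most 32.4 CPM elsewhere. For Ctgf they were Palld (0.986), Lmod1 (0.984), Egr2 (0.983), Rbm38 (0.980) and Gas1 (0.979). Palld, which encodes the actin-associated palladin, had 202, 470 and 270 CPM in basal cells. For Axl they were Tgfbr3 (0.996), Ptpre (0.993), Prkacb (0.993), Tpst1 (0.991) and Sema6d (0.989), whose basal levels all stayed within 2-fold over the stages. Tgfbr3, the gene of betaglycan, had 46.5, 57.6 and 37.8 CPM in basal cells. For Cyr61 they were Cp (0.990), Dab2 (0.989), Ephx1 (0.988), Tmem246 (0.984) and Klf9 (0.984), each with its highest levels in LP cells. Cp, which encodes ceruloplasmin, had 341, 286 and 129 CPM in LP cells.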

How the data were processed

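Droplet libraries (10x Genomics Chromium, 3′ protocol) were processed by the authors with Cell Ranger 2.0 on mm10, per the labels and the submitters' processing notes. The deposited values are counts of molecules per gene and cell barcode, without normalization, and depth was a median of 2702 to 4103 counts per cell. Strand use and the limit for calling cells are not given in the sources used here. The members and gene lists were chosen with earlier results of these data known.

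The puberty tables were treated as repeat tables of 1 library. Each library was clustered with scanpy 1.11.5 (2000 variable genes, 30 components, 15 neighbours, Leiden resolution 1.0), without the members, lists, mitochondrial and ribosomal genes. The cell type markers were not left out, so the naming of clusters was not independent of the clustering. A cluster took the class with the highest marker score, given at least 3 markers in 10% of its cells. It stayed unnamed if small (under 20 cells), if 2 lineages scored within 0.5, if genes of another class led it, or if a basal cluster held 5 of the 6 shared luminal markers in 50% of its cells (a rule set after seeing the data). No doublet caller was run, and cells were not filtered further.

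Counts were summed per class and library (9 pseudobulks) and fitted with edgeR 4.0.16 (TMM, filterByExpr, quasi-likelihood F test, library as a block, adjusted p under 0.01). The 3 libraries are of different stages, so the residual spread includes stage-specific lineage differences. The SE of a difference was its absolute value divided by the root of F. Stage ratios used TMM-scaled counts with exact conditional binomial intervals, a floor of 3 counts and a minimum of 20 CPM. For each list, up to 4 genes of largest change per direction were named, with all 10 members and the 5 genes of most similar pattern for Ankrd1, Axl, Ctgf and Cyr61. Tead2, listed under 2 gene IDs, was read from the one with more counts. Gene positions are those of GENCODE M21 (GRCm38) and promoters those of RefSeq (GRCm38.p6). Alternatives were DESeq2 1.42.0, other filters, thresholds, cell calls, puberty tables and scalings, and fits without 1 library.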

Additional observations from a re-analysis of the deposited data

Results flagged for a closer look

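Ctgf and Cyr61 moved in opposite directions between libraries in different lineages, with both counting intervals off 0. The differences between lineages were not tested, since each stage had 1 library. For diestrus over estrus, the log2 ratio of Ctgf was -1.15 in basal cells and 2.23 in ML cells (24 against 6 counts), and the 8 basal markers also rose in ML cells, from 89.4 to 224 CPM. The part of these markers in the ML value was not tested. For Cyr61 the same ratio was -0.45 in basal and -0.57 in LP cells but 0.43 in ML cells. Puberty over estrus gave Cyr61 -0.68 in basal and 0.81 in ML cells. Puberty over diestrus gave -0.23 in basal cells but 0.58 in LP and 0.38 in ML cells. These Cyr61 directions were the same under all 8 alternatives.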

How the results depend on the processing

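No paired analysis was possible because the stages share a single replicate number, 1, the second puberty table being a repeat of the first; the lineage fits already pair the classes by library. Of 215 alternative values of the members' lineage differences, 195 kept direction and side of the threshold or, for Axl in basal cells, stayed close to the main value. The count includes Axl, which was chosen on such values and is given no test, so it is no support for the differences of Axl. Another 6 values reversed, all of differences that did not pass. For basal cells this was Amotl2 without the estrus library (-0.19, and up to 0.45 without another library). For LP against ML cells it was Yap1 with the second puberty table (0.12), with the summed tables (0.041) and without the estrus library (0.0061, and down to -0.064 without another). Lats2 without the diestrus library (-0.10, up to 0.94) and Ajuba without the estrus library (-0.10, up to 0.41) reversed there as well. Genes lower in basal cells were 1186 without the block for library, against 1967, and leaving out 1 library gave 1280 (without estrus) to 1488 lower and 1735 to 1875 higher. For LP over ML cells, the fit without the block gave 963 higher and 750 lower, against 1571 and 1462, a threshold of 0.05 gave 2224 lower, and leaving out 1 library gave 976 (without estrus) to 1185 higher and 854 (without estrus) to 997 lower, with 930 without puberty. Fewer libraries were fitted there; for the block, the cause was not tested. A minimum of 5 CPM, which tests more genes, raised genes past 2-fold for diestrus over estrus to 1077 (basal), 1433 (LP) and 792 (ML), and for puberty to 537, 392 and 390. Averaging depth-scaled counts over cells gave 262 basal genes in puberty, against 171 (cause not tested). Of 328 alternative stage ratios of the members, 31 moved outside the counting interval and none with an interval off 0 reversed. Thinned to 1500 counts per cell, the shares of basal cells in puberty, estrus and diestrus were 10.4%, 48.7% and 26.4% for Ctgf and 30.1%, 46.5% and 40.4% for Cyr61, and for Ankrd1 7.02% in estrus and 1.33% in diestrus. Under scaling by total counts the median ratio of all genes was as low as -0.27 (puberty over diestrus, LP cells), against 0.10 under TMM, and the puberty to estrus ratio of Cyr61 in LP cells was -0.26 in place of 0.01.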
